A study of Mus musculus with 267 samples.

Results

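The genes described here are the inflammatory genes of macrophages that answer to NF-κB, together with the subunits, inhibitors and adaptors of the NF-κB pathway itself. The 43 genes were taken from a fixed list of symbols. A chromatin region or factor peak was assigned to a gene where its centre lay within 25 kb of that gene's start on mm10 (GENCODE vM21) and no other protein-coding gene started nearer. Regions within 1 kb of the start were called promoter regions and the others distal regions. Such regions numbered 230 among 67742 for C57, 189 among 54022 for BALB, 202 among 68932 for NOD, 184 among 60175 for PWK, 178 among 54755 for SPRET and 260 among 77955 for the C57 time course. Of 29475 regions whose centres matched within 500 bp in all 5 strains, 111 belonged to 42 of the 43 genes, with Nfkbib alone having none. They comprised 32 promoter and 79 distal regions, some of which overlap, so that they cover 105 separate stretches.

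Chromatin immunoprecipitation sequencing (ChIP-seq) was carried out on bone marrow-derived macrophages (BMDMs), cells grown from mouse marrow with the growth factor M-CSF. BMDMs came from mice of 5 inbred strains, called C57 (C57BL/6J), SPRET (SPRET/EiJ), BALB (BALB/cJ), PWK (PWK/PhJ) and NOD (NOD/ShiLtJ) here, and were either left untreated (basal) or given IL-4 at 20 ng/mL for 24 hours, with 1 and 6 hours added in C57. A further set compared Egr2 fl/fl with LyzM-Cre Egr2 fl/fl BMDMs, in which the lysozyme M promoter drives Cre in myeloid cells, so that both genotypes carry the floxed Egr2 allele. All groups share the culture in M-CSF, and the labels give no age for the mice. The 111 matched regions were read in 20 libraries each of H3K27ac (acetylation that marks active enhancers and promoters), H3K4me2 and H3K4me3 and in 28 libraries of RNA polymerase II (Pol II). The labels call the replicates biological without saying whether they came from separate animals, so p-values measure only the spread between these samples.

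NF-κB is a family of dimeric transcription factors that IκB proteins hold in the cytoplasm until a danger signal, such as a microbial product sensed by a Toll-like receptor, releases them. In macrophages it switches on cytokines, chemokines and the inflammasome, and also its own inhibitors, which end the response. IL-4 works through another factor, STAT6, and drives the alternative macrophage state, in which inflammatory genes are known to be held down. No inflammatory stimulus was given here, so the values describe the resting level of these genes and its change under IL-4.

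The labelled cell type was checked in C57. All 7 macrophage markers examined had a promoter region, with mean basal H3K27ac from 190 tags at Mertk to 800 tags at Cd68 (n = 2), in tags scaled to a library of 10000000. At 24 hours of IL-4 the means were lower at all 7, at 158 tags from 664 for Fcgr1, 263 from 716 for Lyz2, 220 from 479 for Adgre1, 78.6 from 190 for Mertk, 128 from 288 for Csf1r, 427 from 800 for Cd68 and 201 from 348 for Itgam. The T cell markers Cd3e and Cd4 and the neutrophil markers Ly6g, Mpo and Elane had no region, whereas the B cell gene Ms4a1 had 88.8 tags and the neutrophil gene S100a8 37.4 tags. Arg1, an arginase induced by IL-4, had 63.6 tags of H3K27ac at basal and 195 at 24 hours. Mrc1, a mannose receptor of the alternative state, had 245 and 226, and Chil3 and Retnla had no promoter region. Library totals ran from 4691644 to 29050468 tags. The share of tags falling inside regions was lower after IL-4 for 3 of the 4 targets. For H3K27ac it ran from 48.4% to 65.4% (median 56.9%) in basal libraries and from 28.7% to 57.1% (median 42.6%) at 24 hours. For H3K4me2 the medians were 33.7% and 24.8%, for H3K4me3 66.4% and 60%, and for Pol II 32% and 31.8%. The whole-table median of H3K27ac moved by -0.31 on the log2 scale accordingly, and the counts of H3K27ac over the members and their groups are therefore also given after median-ratio scaling, which sets that shift to about 0. The part of this difference in each result was not tested.

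The first sequences shown are of 5 distal regions at which H3K27ac rose after IL-4, each by the 200 bases around the centre of the C57 STAT6 peak at 24 hours that lies in them, since STAT6 is the factor through which IL-4 acts. Capitals mark TTCNNNNGAA, the palindrome with the spacing that STAT6 is known to bind, searched on both strands (the motif is its own reverse complement). The windows are on the + strand of GRCm38.p6, at chr17:35809603-35809802 for Ier3, chr3:135689032-135689231 for Nfkb1, chr11:23762703-23762902 for Rel, chr2:129360239-129360438 for Il1b and chr4:125131658-125131857 for Zc3h12a.
Ier3: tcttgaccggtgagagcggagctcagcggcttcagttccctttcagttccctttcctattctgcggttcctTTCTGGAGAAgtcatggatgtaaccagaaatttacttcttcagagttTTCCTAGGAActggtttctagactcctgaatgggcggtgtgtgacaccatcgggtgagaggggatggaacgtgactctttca
Nfkb1: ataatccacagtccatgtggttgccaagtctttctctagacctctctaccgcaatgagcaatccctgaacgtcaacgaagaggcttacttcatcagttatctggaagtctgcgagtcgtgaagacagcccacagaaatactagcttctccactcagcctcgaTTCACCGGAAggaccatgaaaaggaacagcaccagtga
Rel: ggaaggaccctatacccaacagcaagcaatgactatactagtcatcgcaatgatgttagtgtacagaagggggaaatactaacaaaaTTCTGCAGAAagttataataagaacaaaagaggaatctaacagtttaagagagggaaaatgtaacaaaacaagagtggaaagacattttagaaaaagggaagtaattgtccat
Il1b: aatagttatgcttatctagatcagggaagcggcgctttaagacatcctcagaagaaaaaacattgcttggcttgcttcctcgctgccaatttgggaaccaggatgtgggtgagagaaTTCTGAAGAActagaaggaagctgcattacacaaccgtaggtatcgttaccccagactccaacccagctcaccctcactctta
Zc3h12a: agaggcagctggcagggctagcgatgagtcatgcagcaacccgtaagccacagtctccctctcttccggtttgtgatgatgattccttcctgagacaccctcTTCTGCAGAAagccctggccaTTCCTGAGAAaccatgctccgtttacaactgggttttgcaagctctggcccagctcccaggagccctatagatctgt
The Ier3 and Zc3h12a windows each held 2 matches and the other windows 1 each. Of all 39527 C57 STAT6 windows at 24 hours, 12.3% held the motif. A further window is shown for contrast, from the Nlrp3 promoter region, at which H3K27ac fell and which also carried a STAT6 peak (chr11:59541410-59541609, + strand). It held no match.
Nlrp3: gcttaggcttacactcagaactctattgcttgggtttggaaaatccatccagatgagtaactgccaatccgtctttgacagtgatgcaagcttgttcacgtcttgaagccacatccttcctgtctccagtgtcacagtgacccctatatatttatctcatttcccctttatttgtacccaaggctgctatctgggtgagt
The windows in the raised regions of Il12a and Il1a and in the lowered regions of Cebpd, Bcl3 and Nfkbiz likewise held no match. These 11 windows were chosen from the regions of largest change, and a match is a description of the letters only.

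The same count was made over all called regions rather than the chosen windows. All 14 member regions raised in H3K27ac across the strains (tested below) carried a C57 STAT6 peak at 24 hours, against 77.1% of all raised regions. In 7 of the 14 (50.0%) such a peak had TTCNNNNGAA in its window. Of all raised regions with a STAT6 window the motif was in 513 of 1816 (28.2%). Of the 40 lowered member regions with a STAT6 peak it was in 3 (7.5%), and of all 7154 such lowered regions in 321 (4.49%).

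The κB motif, the site of NF-κB dimers, is shown in the 250 bases before the RefSeq start of the neutrophil chemokines Cxcl2 and Cxcl1. The windows are chr5:90903649-90903898 for Cxcl2 and chr5:90890995-90891244 for Cxcl1, both on the + strand of GRCm38.p6. Both genes had a region called as different between strains in the fit with a replicate block, and in no other fit. The Cxcl2 region called covers the printed window. The Cxcl1 region called lies at -9422 bp, outside the printed window, and Cxcl1 had no promoter region in C57. Capitals mark GGGNNNNNCC on either strand, where neighbouring matches overlap and run together.
Cxcl2: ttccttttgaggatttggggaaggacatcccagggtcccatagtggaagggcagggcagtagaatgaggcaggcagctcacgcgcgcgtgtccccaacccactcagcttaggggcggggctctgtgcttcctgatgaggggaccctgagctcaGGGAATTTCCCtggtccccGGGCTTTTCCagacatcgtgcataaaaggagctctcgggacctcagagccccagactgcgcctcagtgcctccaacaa
Cxcl1: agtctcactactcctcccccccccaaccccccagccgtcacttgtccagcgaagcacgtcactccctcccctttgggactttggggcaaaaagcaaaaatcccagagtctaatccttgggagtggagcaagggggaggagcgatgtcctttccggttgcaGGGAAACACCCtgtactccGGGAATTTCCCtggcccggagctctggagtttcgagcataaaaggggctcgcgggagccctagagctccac
Cxcl2 held 3 matches and Cxcl1 4. RefSeq promoter windows of 300 bases were found for 30 of the 43 genes (36 windows), and 25 of the 36 (69.4%) held the κB motif, against 50.8% of all 32851 windows. For the other motifs searched on both strands, the shares were 13.9% against 6.95% for TTCNNNNGAA, 16.7% against 7.81% for the AP-1 motif TGANTCA, 30.6% against 28.3% for the PU.1 core GAGGAA, 19.4% against 17.2% for the EGR core (GTGGGCG or GCGGGGG) and 11.1% against 10.8% for the C/EBP motif TTGCNNAA.

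After 24 hours of IL-4, the chromatin of these genes moved in both directions, with falls more frequent than rises. Over the 5 strains, H3K27ac fell at 45 of the 111 regions (40.5%) and rose at 14 (12.6%), in limma on log2(tags + 1) with the strain as a term and Benjamini-Hochberg adjustment over all regions. Of all 29475 regions 32.6% fell and 8.01% rose. The median log2 difference was -0.37 over the members and -0.31 over all regions. After median-ratio scaling, 34 member regions fell and 21 rose, against 15.5% and 15.9% of all regions, with medians of -0.03 and 0.01. The falls of the main fit touched 23 genes and its rises 10, and Il1b alone had both. The main fit did not pair the libraries. With replicate number as a block, 57 member regions fell and 17 rose, where 13440 and 3260 of all 29475 regions did.

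**Figure D1:**
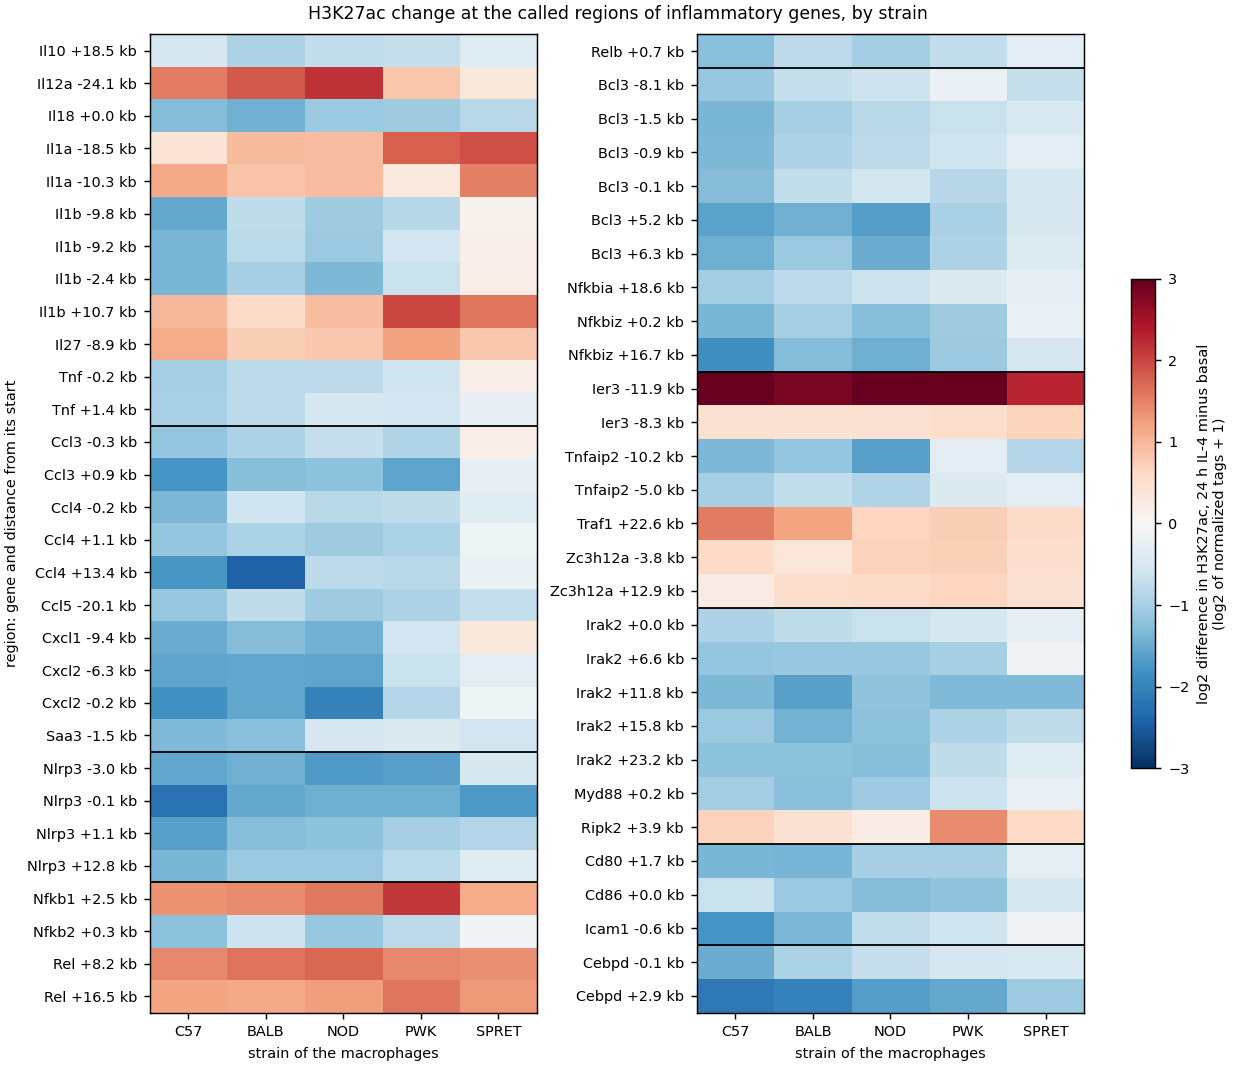
Log2 difference in H3K27ac between 24 hours of IL-4 and basal (colour, saturated beyond 3 in either direction) at member regions called in the 5-strain fit, with a row for each region and a column for each strain. The raised regions are above 0 in every strain, and the lowered regions are palest in SPRET, where 39 of 45 are below 0.

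Promoter and distal regions were counted apart, and the difference between them was not tested. At promoters H3K27ac fell at 17 of 32 regions (53.1%) and rose at none, where 26.7% of all promoter regions fell and 2.96% rose. With median-ratio scaling 14 of the 32 fell and none rose. At distal regions 28 of 79 fell (35.4%) and 14 rose (17.7%), where the shares over all distal regions were 35.1% and 10.1%. With median-ratio scaling 20 of the distal regions fell and 21 rose. Under that scaling no share is given for all promoter or all distal regions apart. Over both kinds together, 15.5% of all regions fell and 15.9% rose. All 14 raised regions thus lay away from the gene start. The median difference was -0.62 at the member promoters and -0.26 at the distal regions. The macrophage marker promoters were also lower at 24 hours in C57, as given above, and their part in the promoter falls was not tested.

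Pol II gave a balanced count in the main fit, which leaves out the pairing of replicates, but not in the paired fit below. It rose at 18 member regions (16.2%) of 8 genes and fell at 17 (15.3%) of 11 genes, where 7.77% of all regions rose and 8.46% fell. At promoters Pol II fell at 7 of 32 regions (21.9%) and rose at 2, with 3.27% of all promoter regions lowered. With replicate number as a block, which pairs these libraries, the Pol II calls were 22 raised and 42 lowered, so that falls were more frequent. Of all 29475 regions, 2994 rose and 5038 fell in that fit (27.3% called in either direction). H3K27ac and Pol II rose together at 10 regions and fell together at 17, and at no region did they go opposite ways. No share over all regions is given for these joint counts, so they are not read as a trait of the members.

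The methylation marks were counted at the same regions. H3K4me2 fell at 87 of the 111 regions and rose at none, against 74.4% and 1.85% of all regions. After median-ratio scaling only 5 fell and 5 rose, with 1.4% and 5.9% of all. H3K4me3, the promoter mark, fell at 24 and rose at 8 (17.6% and 5.27% of all), and at 9 and 7 after median-ratio scaling (2.36% and 5.31% of all). At promoters it fell at 18 of 32 regions (56.2%), against 41.5% of all promoter regions.

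Ier3, a short-lived gene induced by NF-κB that affects cell survival, had the largest rise of H3K27ac among the members. In the region at -11942 bp (chr17:35809242-35810242, intergenic in RefSeq), the 10 basal libraries ran from 4.99 to 34.2 tags with a median of 11.6. The 10 libraries at 24 hours ran from 29.1 to 195 tags with a median of 142. The lowest IL-4 library, from SPRET, reached into the basal range of the other strains, and within each strain the groups were apart. The log2 difference was 3.0 ± 0.28 (SE, adjusted p = 2.46e-08), and it lay between 2.28 in SPRET and 3.51 in PWK. Pol II at the same place ran from 0 to 11.2 tags (median 2.41) at basal and from 7.07 to 51.6 tags (median 26.9) at 24 hours, a log2 difference of 2.5 ± 0.26 (adjusted p = 1.02e-08). At the Ier3 promoter Pol II rose by 0.76 on the log2 scale (adjusted p = 0.0134), from a median of 304 to 618 tags, while H3K27ac there differed by 0.10 and did not pass the test.

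Among the NF-κB subunits, distal regions of Nfkb1 and Rel rose, while promoter regions of Nfkb2 and Relb fell. The promoters of all 4 genes had lower mean H3K27ac at 24 hours in C57 (n = 2). The means went from 304 to 163 tags at Nfkb1 and from 568 to 324 at Rel. They went from 362 to 162 at Nfkb2 and from 351 to 154 at Relb. Nfkb1 encodes p105, the precursor of p50, and Rel encodes c-Rel. In the intronic Nfkb1 region at +2460 bp (chr3:135688587-135689587), H3K27ac ran from 3.95 to 27.9 tags (median 16.3) at basal and from 9.69 to 64.4 tags (median 54.8) at 24 hours. The ranges overlapped, and the log2 difference was 1.51 ± 0.26 (adjusted p = 8.76e-05). Pol II at this region ran from 12.1 to 28.5 tags at basal and from 24.7 to 73.5 tags at 24 hours, a difference of 1.35 ± 0.17 (adjusted p = 3.54e-07). In the intronic Rel region at +8175 bp (chr11:23762295-23763295), H3K27ac ran from 15.8 to 33.3 tags (median 20.6) at basal and from 30.2 to 113 tags (median 62.6) at 24 hours, a difference of 1.52 ± 0.23 (adjusted p = 1.73e-05). Another Rel region at +16487 bp rose by 1.29 ± 0.23. Pol II rose at 3 Rel regions, by 0.77 to 1.19 on the log2 scale. At the promoters of Nfkb2, which encodes p100, and of Relb, its partner in the noncanonical arm of the pathway, H3K27ac fell by 0.77 and 0.82, and Pol II differed by -0.21 and -0.30 without passing the test. Of the 12 subunit regions 3 rose and 2 fell in H3K27ac, and with median-ratio scaling 5 rose and none fell, so the falls at Nfkb2 and Relb were not called under that scaling.

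**Figure D2:**
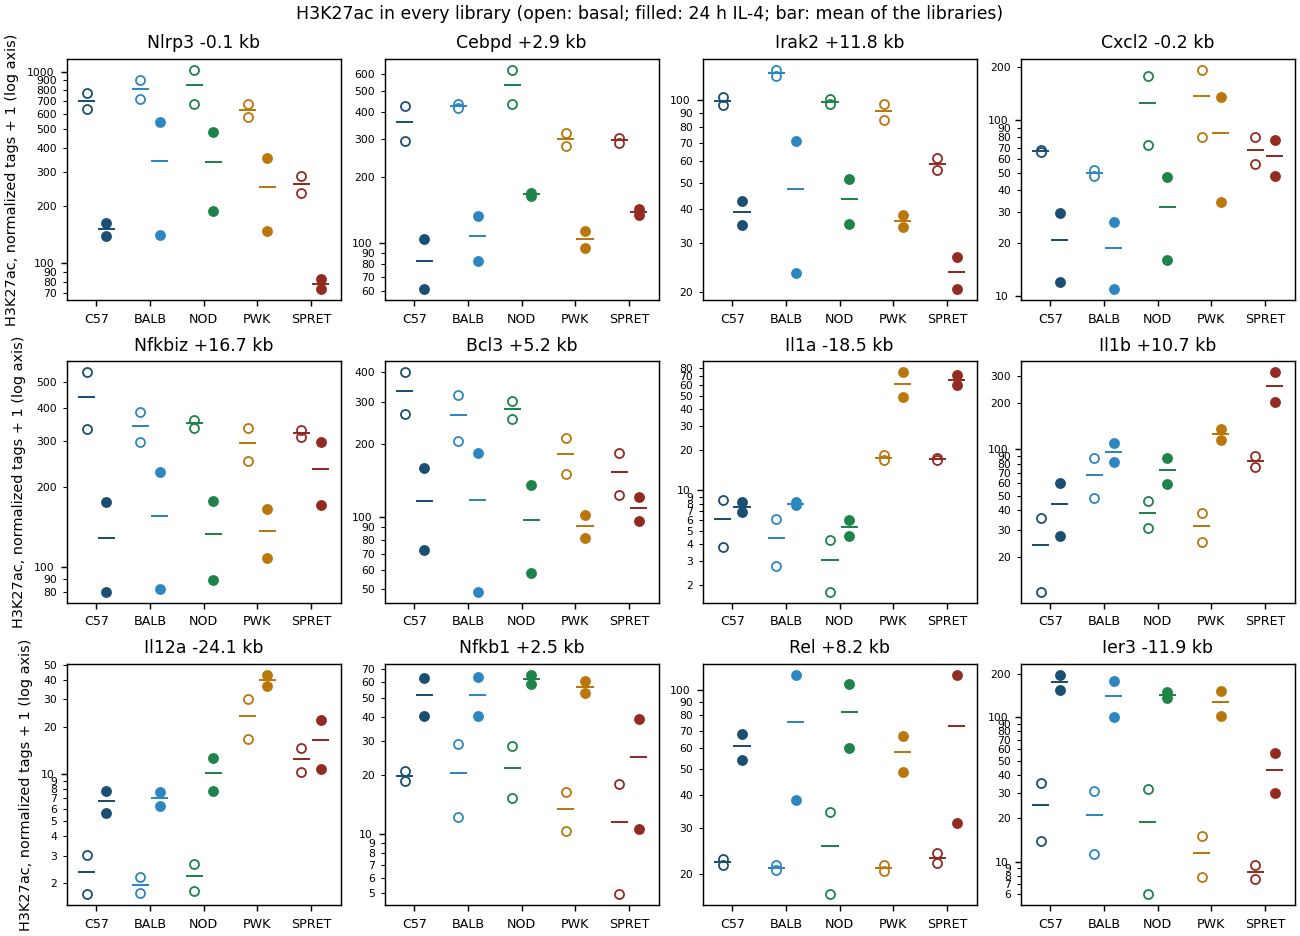
Normalized tags per library (log axis, tags + 1) at the named member regions, basal and 24 hours of IL-4 side by side, by strain, with open points for basal, filled points for IL-4 and a bar at the mean. At Ier3 the basal libraries sit between 4.99 and 34.2 tags and the IL-4 libraries between 29.1 and 195, and at Cebpd the groups do not overlap.

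Among the 27 regions of genes for feedback and survival, which end or limit inflammatory signals, Pol II rose at 11 (40.7%, against 7.77% of all regions) and fell at none. The 11 rises belonged to 3 of the 7 genes, 7 to Zc3h12a, 3 to Ier3 and 1 to Tnfaip3. Zc3h12a encodes an RNase that degrades inflammatory transcripts, and Pol II rose at 7 of its 8 regions, by 0.48 to 1.20 on the log2 scale. The largest, at -3828 bp (chr4:125131168-125132168, intergenic), rose by 1.20 ± 0.18 in Pol II (adjusted p = 9.72e-06) and by 0.57 ± 0.16 in H3K27ac (adjusted p = 0.00725). At the Zc3h12a promoter Pol II rose by 0.48 (adjusted p = 0.0148), and H3K27ac differed by -0.34 without passing the test. Tnfaip3 encodes the ubiquitin-editing enzyme A20. None of its 5 regions was called in H3K27ac, and Pol II rose at +6887 bp by 0.98 ± 0.32 (adjusted p = 0.0319). At Traf1, a TNF receptor adaptor, H3K27ac rose at +22629 bp by 0.94 ± 0.26 while Pol II there differed by -0.25. In H3K27ac these regions held 5 rises (18.5%, against 8.01%) and 2 falls (7.41%, against 32.6%), both falls at Tnfaip2, and 7 rises and 2 falls with median-ratio scaling.

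Of the 15 regions of IκB proteins, cytoplasmic and nuclear, 9 fell in H3K27ac (60.0%, against 32.6% of all regions) and none rose. With median-ratio scaling 7 fell (against 15.5% of all), and Pol II fell at 3 (20.0%, against 8.46%). Of the 9, 6 belonged to Bcl3 and 2 to Nfkbiz, both nuclear IκB proteins, and 1 to the cytoplasmic inhibitor Nfkbia. The intronic Bcl3 region at +5214 bp fell from a median of 233 tags (122 to 398) to 97.6 (47.6 to 184), a log2 difference of -1.23 ± 0.24 (adjusted p = 0.00024). Nfkbiz encodes the nuclear IκBζ. Its exonic region at +16730 bp fell from a median of 333 tags (250 to 542) to 167 (79.4 to 296), by -1.25 ± 0.22 (adjusted p = 9.32e-05), with Pol II at -0.94 ± 0.16 (adjusted p = 6.5e-05). Nfkbia, which encodes the main cytoplasmic inhibitor, fell at +18646 bp by 0.63, and its promoter differed by -0.54 without passing the test (adjusted p = 0.0848). The Nfkbie promoter differed by -0.27 and was not called.

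Nlrp3, the sensor of the inflammasome that matures IL-1β, showed the largest fall. At its promoter region at -62 bp (chr11:59541006-59542006), H3K27ac ran from 231 to 1019 tags (median 679) at basal and from 72.2 to 545 tags (median 154) at 24 hours. The ranges overlapped across strains, and the log2 difference was -1.69 ± 0.22 (adjusted p = 3.62e-06), from -1.46 in PWK to -2.23 in C57. All 4 Nlrp3 regions fell in both H3K27ac and Pol II, and these were the only falls among the 7 regions of effector genes, also with median-ratio scaling. Pol II at -62 bp ran from 46.4 to 331 tags (median 190) at basal and from 15.7 to 144 tags (median 55.4) at 24 hours, a difference of -1.60 ± 0.20 (adjusted p = 1.74e-07). The other effector genes, Nos2 (nitric oxide synthase) and Ptgs2 (cyclooxygenase 2), differed at their promoters by -0.56 and 0.02 and were not called.

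Cebpd encodes C/EBPδ, a transcription factor that sustains inflammatory gene expression. In its region at +2906 bp (chr16:15889692-15890692, within an intron of Spidr in RefSeq), H3K27ac ran from 278 to 622 tags (median 368) at basal and from 60.3 to 169 tags (median 122) at 24 hours. The groups did not overlap, and the log2 difference was -1.68 ± 0.17 (adjusted p = 6.18e-08). Pol II fell there by 1.25 ± 0.16 and at the promoter by 0.55. Both Cebpd regions fell in H3K27ac, also with median-ratio scaling.

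At the chemokine genes H3K27ac fell at 10 of 11 regions (90.9%, against 32.6% of all regions, with the acute phase gene Saa3 counted among them) and rose at none. After median-ratio scaling 6 fell, against 15.5% of all. Ccl3 and Ccl4, which recruit monocytes and T cells, fell at 2 and 3 regions, Ccl3 at +915 bp by 1.22 ± 0.21 (adjusted p = 6.87e-05). Pol II also fell at both Ccl3 regions (0.75 and 0.67) and at the Ccl4 promoter (0.69). At the Cxcl2 promoter region (chr5:90903188-90904188), whose letters are printed above in part, the median fell from 69.3 tags (47.7 to 192) to 31.1 tags (10.0 to 135), a log2 difference of -1.28 ± 0.31 (adjusted p = 0.00174). Ccl5 fell at -20058 bp by 0.92.

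Of the 8 regions of signal adaptors and kinases 6 fell in H3K27ac (75.0%, against 32.6% of all regions) and 1 rose, with the same counts after median-ratio scaling. Irak2, a kinase of the Toll-like and IL-1 receptor pathway, fell at all 5 of its regions in H3K27ac, most at the intronic +11775 bp, from a median of 96.1 tags (54.7 to 128) to 34.1 (19.4 to 70.0), by -1.37 ± 0.18 (adjusted p = 3.01e-06). Pol II fell at 2 of the 5. The promoter of Myd88, the adaptor shared by most of these receptors, fell by 0.85 ± 0.17 in H3K27ac (adjusted p = 0.000352), and Pol II there differed by -0.24 and was not called. The rise was at Ripk2, the kinase downstream of NOD receptors, which rose at +3908 bp in Pol II by 1.17 ± 0.27 (adjusted p = 0.00175) and in H3K27ac by 0.67 ± 0.22 (adjusted p = 0.0182). Among adhesion and costimulation genes, Icam1 at -576 bp fell by 0.91, Cd86 at its promoter by 0.96 and Cd80 at +1728 bp by 1.01, whereas the Cd40 promoter differed by -0.10. These were 3 falls in 6 regions (50.0%), and 3 with median-ratio scaling.

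Of the 23 cytokine regions 7 fell in H3K27ac (30.4%, against 32.6% of all regions) and 5 rose (21.7%, against 8.01%). With median-ratio scaling 4 fell and 8 rose, against 15.5% and 15.9% of all, so the share of falls was near that of the whole table. Tnf fell at its promoter by 0.60 ± 0.21 (adjusted p = 0.0251) and Il18, a substrate of the inflammasome, at its promoter by 1.15 ± 0.17 (adjusted p = 1.69e-05). Il1b fell at -9820, -9246 and -2413 bp, by 0.74 to 0.84, but rose at +10726 bp (chr2:129359913-129360913, intergenic). There the basal libraries ran from 10.9 to 89.6 tags (median 41.4) and those at 24 hours from 26.3 to 316 tags (median 97.6), a difference of 1.22 ± 0.23 (adjusted p = 0.000238). Il1a rose at -18462 bp by 1.20 ± 0.25 (adjusted p = 0.000518), from a median of 6.30 tags (0.79 to 17.2) to 7.19 (3.62 to 73.5), and the high values there came from PWK and SPRET. Il12a rose at -24096 bp by 1.34 ± 0.26 (adjusted p = 0.000269), from a median of 1.85 tags (0.71 to 29.2) to 8.24 (4.59 to 42.0). PWK was highest there, with 15.7 and 29.2 tags at basal and 35.7 and 42.0 at 24 hours. Il27 rose at -8888 bp by 0.93 and Il10 fell at +18491 bp by 0.65. The promoters of Il6, Il12b and Il23a differed by -0.14, -0.28 and -0.21 and were not called.

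**Figure D3:**
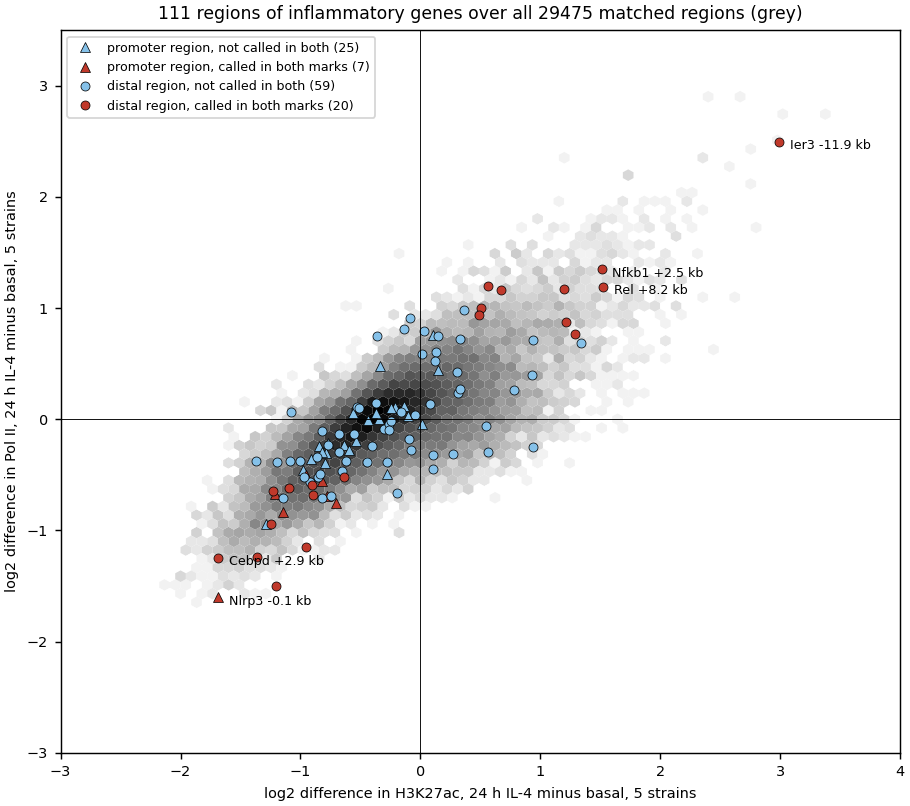
Log2 difference at 24 hours of IL-4 against basal in H3K27ac (horizontal axis) and in Pol II (vertical axis) at the 111 member regions, triangles for promoter and circles for distal regions, red where called in both marks, over all 29475 matched regions in grey. The 10 regions raised in both lie at the upper right, led by Ier3, and the 17 lowered in both at the lower left, led by Nlrp3 and Cebpd. No share of all regions called in both marks is given.

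Other genes of the pathway were read in the same tests. Of 38 further genes of Toll-like, TNF and NF-κB signalling, 34 had a matched region, 90 regions in all. H3K27ac fell at 42 and rose at 2, where 32.6% and 8.01% of all regions did, with a median of -0.45. With median-ratio scaling it fell at 20 and rose at 11, against 15.5% and 15.9% of all. Pol II fell at 12 and rose at 4, all 4 at Ccl2, where 8.46% and 7.77% of all regions did. Cxcl10 at -19713 bp fell by 1.65 ± 0.32 (adjusted p = 0.00027) and Map3k14, the kinase NIK, at +19819 bp by 1.40 ± 0.23 (adjusted p = 4e-05).

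The size of the falls differed from strain to strain in the members and in the whole table alike. Over the 45 lowered regions the median log2 difference was -1.36 in C57, -1.12 in BALB, -1.11 in NOD, -0.82 in PWK and -0.33 in SPRET. Over all 29475 regions the order was the same, with medians of -0.56 for C57, -0.35 for BALB, -0.32 for NOD, -0.26 for PWK and -0.15 for SPRET. With median-ratio scaling, which brings each whole-table median to between -0.02 and 0.02, the medians over the 45 were -0.80 for C57, -0.75 for BALB, -0.79 for NOD, -0.55 for PWK and -0.17 for SPRET, so that C57, BALB and NOD lay close together and SPRET remained nearest to 0. This scaled value per strain was added after the data were seen. Without that scaling SPRET had the smallest fall at 40 of the 45 (88.9%), and at 5709 of the 9607 regions lowered in the whole table (59.4%). C57 had the largest at 30 of 45 (66.7%), and at 6177 of the 9607 (64.3%). The 14 raised regions were above 0 in every strain. A test of the difference between strains, an interaction in limma over all 29475 regions, called no member (0% of all) for H3K27ac and none for Pol II (0% of all). At an unadjusted p below 0.05 the whole table held 367 regions for H3K27ac, none of them a member, and 520 for Pol II. By edgeR no region was called, and by DESeq2 no member. Both limma counts are fewer than a threshold of 0.05 gives with no difference at all, and this fit leaves out the pairing of replicates. The lack of calls therefore does not show that the strains respond alike. With replicate number as a block, limma gave 2991 regions for H3K27ac (18 members) and 2181 for Pol II (23 members) at the same unadjusted threshold.

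With replicate number as a block, 1.86% of all regions were called as different between strains for H3K27ac, and 2 of these were members, Cxcl1 at -9422 bp (adjusted p = 0.0223) and the Cxcl2 promoter (adjusted p = 0.0345). At Cxcl2 the basal and 24-hour libraries had 67.2 and 65.6 against 28.9 and 11.2 tags in C57, and 51.4 and 47.7 against 25.6 and 10.0 in BALB. In NOD they had 179 and 71.4 against 47.0 and 15.2, in PWK 192 and 79.9 against 135 and 33.4, and in SPRET 55.6 and 79.0 against 76.7 and 47.4. The groups were apart in C57, BALB and NOD and overlapped in PWK and SPRET. The log2 differences were -1.82 in C57, -1.56 in BALB, -2.03 in NOD, -0.87 in PWK and -0.13 in SPRET. At Cxcl1 they were -1.49, -1.30, -1.44, -0.58 and 0.34 in the same order. Without the block the adjusted p was 1 at both, under the main fit and each other alternative.

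Single strains had 2 libraries per group. By a fold rule like the study's own (at least 2.5-fold, with at least 16 tags in a group for H3K27ac), C57 had 5 raised and 41 lowered member regions (20.0%, against 11% of all regions), BALB 6 and 14 (10.6%, against 7.97%), NOD 4 and 25 (14.4%, against 8.38%), PWK 9 and 10 (10.3%, against 6.12%) and SPRET 9 and 2 (6.18%, against 3.58%). Regions passing in both H3K27ac and Pol II (at least 8 tags) numbered 2 raised and 10 lowered for C57 (2.08% of all regions), 2 and 2 for BALB (1.99%), 2 and 12 for NOD (2.09%), 5 and 5 for PWK (1.87%) and 0 and 1 for SPRET (1.09%). These counts by fold carry no test. Limma within each strain called 0 member regions for C57 (0% of all), 3 for BALB (2.26% of all), 0 for NOD (0.0566% of all), 1 for PWK (0.535% of all) and 4 for SPRET (1.19% of all). At an unadjusted p below 0.05 in limma there were 77 of 230 in C57, where 14904 of all 67742 regions passed. In NOD there were 49 of 202, where 8578 of all 68932 passed. EdgeR called no member in either. DESeq2 called 22 of 176 in C57, with 3597 of all 42763 regions, and 5 of 173 in NOD, with 1187 of all 48882. The H3K27ac libraries are paired by replicate number, and with that number as a block the member calls were 122 of 230 in C57 (38% of all regions called), 18 of 189 in BALB (7.67%), 67 of 202 in NOD (19.9%), 23 of 184 in PWK (9.39%) and 14 of 178 in SPRET (7.03%). Without the block, the distal Ier3 region was called in BALB, PWK and SPRET.

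The C57 time course was read at 1, 6 and 24 hours. Leaving out 1 library gave 0 to 97, 0 to 19 and 0 to 21 member calls of H3K27ac at these times, so no order of changes is drawn. The share of H3K27ac tags inside regions was 69.7% and 63.8% at basal and 44.0% and 20.5% at 1 hour. It was 51.0% and 50.2% at 6 hours and 46.4% and 41.2% at 24 hours. The part of this difference in the calls was not tested. At 1 hour H3K27ac fell at 19 of 260 member regions and rose at none, with 9.72% of all regions called and medians of -0.76 over the members and -0.63 over all. The 19 belonged to Cxcl2, Tnf, Cxcl1, Irak2, Il10, Bcl3, Icam1 and Nlrp3. With median-ratio scaling 10 rose and 2 fell (2.84% of all called). The largest fall was at Cxcl2, at -5233 bp, where the basal libraries had 128 and 307 tags, those at 1 hour 58.8 and 11.7, at 6 hours 65.5 and 59.6 and at 24 hours 46.7 and 104. Its log2 difference at 1 hour was -2.85 ± 0.69 (adjusted p = 0.0222). The replicates at 1 hour stood far apart, and without the first of them 97 member regions were called.

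At 6 hours H3K27ac rose at 5 member regions and fell at 4, where 5.13% of all regions were called. With median-ratio scaling 8 rose and 4 fell (4.79% of all called). The rises were at Il1a, Ier3, Cebpd, Il12a and Nfkb1 and the falls at Il6, Cxcl1, Il10 and Il18. At Il6, +22963 bp, the libraries had 32.6 and 62.8 tags at basal, 10.8 and 13.8 at 1 hour, 6.16 and 8.52 at 6 hours and 11.9 and 21.7 at 24 hours, and the difference at 6 hours was -2.49 ± 0.59 (adjusted p = 0.0215). At Il1a, +781 bp, they had 23.8 and 2.14 at basal, 140 and 6.88 at 1 hour, 183 and 85.8 at 6 hours and 39.1 and 14.4 at 24 hours, so that the replicates before 6 hours disagreed (difference at 6 hours 3.84 ± 1.03, adjusted p = 0.0373). At the distal Ier3 region they had 12.9 and 35.7 at basal, 149 and 34.8 at 1 hour, 231 and 243 at 6 hours and 194 and 152 at 24 hours. Ier3 was highest at 6 hours and was the only member called at 24 hours (2.94 ± 0.66, adjusted p = 0.0323, with 1.45% of all regions called).

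**Figure D4:**
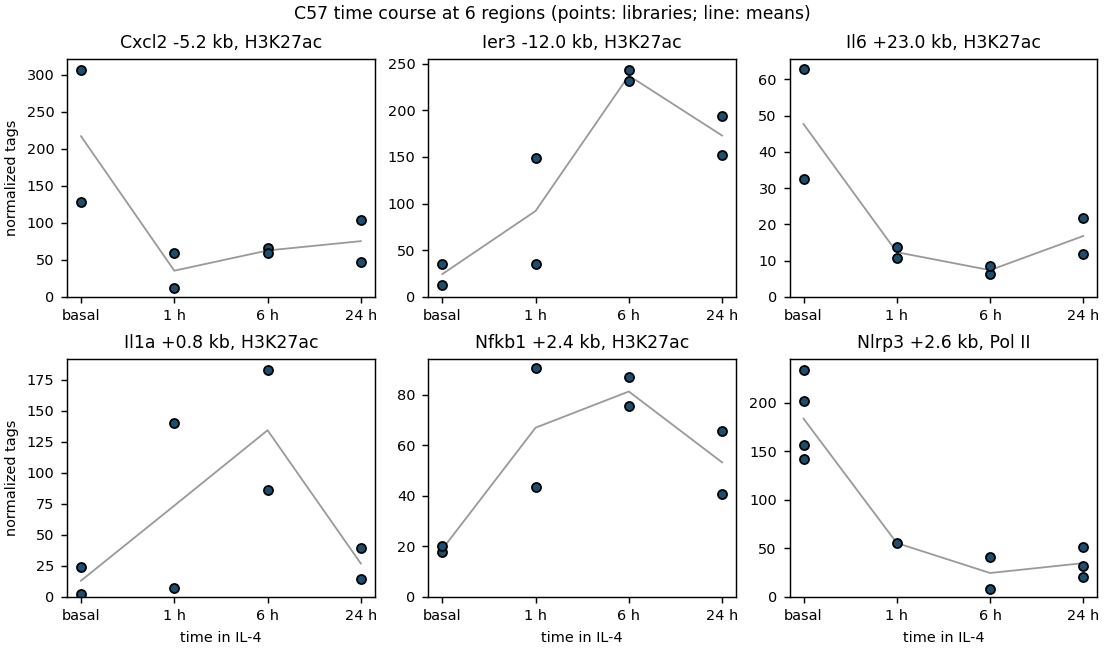
Normalized tags per library (points, with a line through the means) in C57 BMDMs at basal and at 1, 6 and 24 hours of IL-4, for H3K27ac at Cxcl2, Il6, Il1a, Ier3 and Nfkb1 regions and Pol II at Nlrp3. Ier3 rises to 231 and 243 tags of H3K27ac at 6 hours, and Pol II at Nlrp3 falls from between 142 and 234 tags to 7.80 and 41.1.

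Pol II in the time course fell at Nlrp3 and rose at Nfkb1 and Ier3. At Nlrp3, +2614 bp, the 4 basal libraries had 157, 202, 234 and 142 tags, the single library at 1 hour 55.4, those at 6 hours 41.1 and 7.80, and those at 24 hours 51.4, 20.5 and 32.1. No later library reached the basal range (log2 difference at 6 hours -3.23, adjusted p = 0.0103). At Nfkb1, +2445 bp, the basal libraries had 12.5, 15.3, 19.8 and 18.2 tags, the library at 1 hour 99.5, those at 6 hours 84.3 and 42.9 and those at 24 hours 62.0, 57.8 and 47.5, with all later libraries above the basal ones (1.83 at 6 hours, adjusted p = 0.0494, and 1.71 at 24 hours, adjusted p = 0.0335). Over the members 2 rose and 2 fell at 6 hours and 2 rose and 5 fell at 24 hours, all 5 at Nlrp3, where 0.566% and 0.677% of all regions were called. With 1 library at 1 hour no test was made there. Many of these calls rest on single libraries, and leaving 1 out gave from 0 to 16 member calls at 6 hours and from 0 to 9 at 24 hours.

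Factor peaks near the members were taken from lists that the authors had called reproducible between replicates, 1 per group, so that gains and losses carry no replicate error. A peak was gained where no basal peak of the same strain overlapped it by at least 1 bp. Over the 5 strains, 259 of 637 STAT6 peaks near members at 24 hours were gained (40.7%, against 49.5% of all STAT6 peaks) and 103 of 483 basal peaks were lost (21.3%, against 27.3%). For EGR2, a factor that IL-4 induces, 244 of 488 were gained (50.0%, against 54.8%) and 62 of 305 lost (20.3%, against 23.4%). For PPARγ, a nuclear receptor of the alternative state, 319 of 512 were gained (62.3%, against 72.1%) and 71 of 267 lost (26.6%, against 27.7%). For C/EBPβ, 256 of 687 were gained (37.3%, against 45.7%) and 33 of 464 lost (7.11%, against 10.9%). For PU.1, the factor that defines macrophages, 137 of 1182 were gained (11.6%, against 15.7%) and 198 of 1243 lost (15.9%, against 19.9%). The pooled shares lay near those of all peaks. The gained share at 24 hours was lower near members than over all peaks for every factor in every strain, which was not tested. The order of the lost shares turned in places. The lost share of PPARγ near members was 45.8% against 44.8% with lists of equal length and 29.1% against 27.7% in the window of 10 kb. By strain the lost share of EGR2 was 27.3% against 21.4% for PWK, and that of PPARγ 35.3% against 23.8% for BALB. Summed over EGR2 and STAT6, the number of gained peaks was highest at Tnfaip2 (17 of 32 EGR2 and 13 of 32 STAT6 peaks at 24 hours), Tnfaip3 (15 of 25 and 15 of 34) and Traf1 (14 of 29 and 15 of 26). For STAT6 alone Nfkb1 had the most, 16 of 18. These ranks are by number and not by share, and genes with more peaks can gain more. Over all peaks 54.8% of EGR2 and 49.5% of STAT6 were gained, so the ranks are not read as an excess of new binding.

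**Figure D5:**
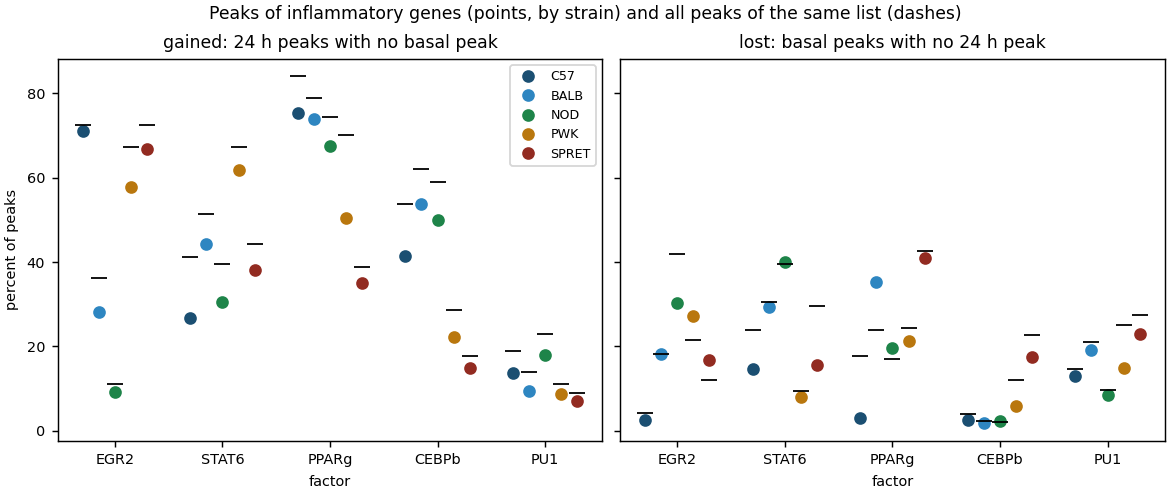
Percent of factor peaks at 24 hours of IL-4 that were gained, and percent of basal peaks that were lost, for peaks near the member genes (points, coloured by strain) and for all peaks of the same list (dashes). Pooled over the strains, the gained shares for STAT6 are 40.7% near members and 49.5% in all.

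Peaks were then set against the H3K27ac calls, in C57, where a gained peak is one in a region that had none at basal. Of the 14 raised member regions 9 had a STAT6 peak at basal (64.3%, against 37.4% of all 2360 raised regions). All 14 had one at 24 hours (against 77.1%), so that 5 gained one (35.7%, against 41.7%). Of the 45 lowered regions 42 had a STAT6 peak at basal (93.3%, against 78.0% of all lowered regions). At 24 hours 40 had one (88.9%, against 74.5%), and 1 gained one (2.22%, against 7.1%). EGR2 was gained at 10 of the 14 raised regions (71.4%, against 43.6%) and at 17 of the 45 lowered ones (37.8%, against 34.2%). C/EBPβ was gained at 8 of 14 (57.1%, against 34.1%) and at 7 of 45 (15.6%, against 17.6%), and PPARγ at 9 of 14 (64.3%, against 54.8%) and at 21 of 45 (46.7%, against 41.3%). PU.1 was present at 44 of the 45 lowered regions (97.8%) both at basal and at 24 hours, against 92.5% and 89.9% of all lowered regions. Of the 45 lowered regions, 3 had a STAT6 peak at basal and none at 24 hours (6.67%, against 10.6% of all lowered regions). These shares describe 1 list per group and carry no test.

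At the regions of largest change, STAT6 peaks were present on both sides. In the distal Nfkb1 region a STAT6 peak was absent at basal in all strains and present in 5 at 24 hours. Rel went from 3 strains to 5, Ier3 from 4 to 5, Il12a from 1 to 4 and Il1a from 2 to 4. Il1b and Zc3h12a had a STAT6 peak in 5 strains at both times, and so had the lowered Nlrp3 and Cebpd regions. Among the other lowered regions Irak2 went from 2 strains to 0, Cxcl2 from 3 to 1 and Bcl3 from 5 to 4, whereas Nfkbiz went from 2 to 3 and Cxcl1 from 3 to 4. C/EBPβ went from 0 strains to 5 at Nfkb1 and from 0 to 4 at Rel and at Ier3, and PPARγ from 1 to 5 at Ier3, 0 to 5 at Zc3h12a and 0 to 4 at Il12a.

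In C57 the height of the STAT6 peak, as the authors' count for the pooled group, was largest at 1 hour at Ier3, Nfkb1, Rel, Il1b, Zc3h12a, Nlrp3 and Cebpd and at 6 hours at Bcl3. At Ier3 it was 32 at basal, 642 at 1 hour, 499 at 6 hours and 438 at 24 hours. At Nfkb1 there was no basal peak and the counts were 390, 238 and 122. Il1b had 47, 421, 307 and 193 and Zc3h12a 40, 461, 229 and 199. Of the lowered regions, Nlrp3 had 102, 292, 222 and 86, Cebpd 109, 186, 150 and 81 and Bcl3 59, 94, 113 and 29. These counts have no replicates and are given with no test.

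EGR2 binding was also counted per library at 135 member sites of 30675 in C57. None passed the test at 24 hours (0% of all), and 7 had an unadjusted p below 0.05, as did 1038 of all 30675 sites. EdgeR and DESeq2 called no member site. The medians in limma were 0.53 over the members and 0.66 over all sites. By peak lists, 93 of 131 member EGR2 peaks in C57 were gained by 24 hours (71.0%, against 72.5% of all), at 35 genes, after 32 of 69 at 1 hour (46.4%, against 43.6%).

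The loss of Egr2 was compared at 22 member sites of 4677 that carry EGR2. At 24 hours of IL-4, H3K27ac differed between LyzM-Cre Egr2 fl/fl and Egr2 fl/fl BMDMs at none of the 22, where 24.7% of all sites were called. An unadjusted p below 0.05 was found at 6 of the 22, and at 1730 of all 4677 sites. EdgeR and DESeq2 called none. The median difference was -0.06 over the members and -0.50 over all sites. The lowest was at Nfkb2, +11076 bp, with 9.05 and 5.78 tags in Egr2 fl/fl and 1.04 and 3.48 in LyzM-Cre Egr2 fl/fl (-1.45 ± 0.62, adjusted p = 0.102). The highest was at Il1b, -14455 bp, with 4.02 and 5.14 against 17.7 and 10.5 tags (1.40 ± 0.52, adjusted p = 0.0631). The genotypes did not overlap at either site. With median-ratio scaling 7 of the 22 were called higher without Egr2 and 0 lower. Of all 4677 sites, 536 were called higher and 496 lower under that scaling. The count thus depends on the scaling. Some of these sites lie over named regions at which H3K27ac rose across the strains. The difference there was 0.24 at Ier3, 0.12 at Rel, -0.14 at Zc3h12a, -0.36 at Il27, -0.60 at Nfkb1 and -0.66 at Il1a, none called in the main fit. At Nfkb1 the genotypes did not overlap, with 103 and 92.5 tags in Egr2 fl/fl and 60.3 and 67.9 in LyzM-Cre Egr2 fl/fl (adjusted p = 0.107).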

How the data were processed

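ChIP-seq of histone marks, Pol II and 5 factors covered 267 samples of BMDMs in 138 groups, which were taken from the labels. Values came from 8 tables (123 libraries) and 54 peak lists. The authors mapped reads to each strain's own genome with Bowtie2, moved the positions to mm10 and counted tags with HOMER. The signal values, as deposited, are HOMER tags in 1000 bp regions (for EGR2 sites, in the peak) that the authors scaled to 10000000 tags per library, with a column per replicate. Whole reads were recovered within 0.1 read for 100% of 7119254 values. Each deposited peak list holds HOMER peaks kept by IDR, 1 list per group, its counts are the authors' pooled values, and the deposited score of a peak, the authors' own, was used only to rank peaks when lists were cut to equal length. The tables also hold 4 value columns that matched no sample, and these and a factor table by genotype were left out.

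Differences were tested with limma 3.58.1 (R 4.3.3, trend, log2 of tags + 1, Benjamini-Hochberg over all regions, adjusted p below 0.05). EdgeR 4.0.16 and DESeq2 1.42.0 on whole reads, a pseudocount of 5, a filter on low values, median-ratio scaling, centres matched within 100 bp, a window of 10 kb and leaving out each library were alternatives. Peaks were compared with bedtools 2.31.1. The tests were tried on simulated data with known differences. The members, lists and motifs were chosen with earlier results of these data known. Values per library were printed for the 6 largest called rises and 6 largest called falls of H3K27ac with the same sign in all strains, 1 region per gene, the 3 largest of each in Pol II, the largest in each time-course contrast, the called strain differences, the lowest and highest site by genotype and the 3 members with the most gained peaks. Other named regions were chosen after their values were seen.

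Replicate pairs differed by chi-square over degrees of freedom from 2.01 to 17.5 in 83 pairs, so each library counted as its own replicate. Equal replicate numbers deviated together in the 5-strain libraries of H3K27ac, Pol II and H3K4me2, with all correlations above 0.1. The correlations were 0.315 to 0.586 for H3K27ac (10 pairs) and 0.128 to 0.529 for Pol II (13 pairs). For H3K4me2 they were 0.111 to 0.387 (10 pairs). Where a group has 2 libraries, both pairs of a strain give the same correlation. The main fits left this pairing out, and replicate number entered only as a block in alternative fits. Equal numbers were taken as pairs for these 3 targets. For H3K4me3 (0.02 to 0.413) and the other tables (-0.073 to 0.452) they were not. Values scaled to the library total still carry any difference between libraries in how many tags fall inside regions.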

Additional observations from a re-analysis of the deposited data

Results flagged for a closer look

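In Pol II of basal C57 BMDMs, 1 of 4 libraries stood apart from the others at 2 regions. At Il12a, -24096 bp, it had 8.11 tags where the others had 0.80, 1.61 and 1.01, and at Il1a, +781 bp, it had 68.6 tags where the others had 8.02, 1.07 and 2.03. These were 2 of 24 groups examined, where chance gives about 1 in 20.

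The change of H3K27ac differed between strains at 2 members in the fit with replicate number as a block, at Cxcl1 -9422 bp (adjusted p = 0.0223) and at the Cxcl2 promoter (adjusted p = 0.0345). The fit without the block gave an adjusted p of 1 at both.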

How the results depend on the processing

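No named region changed direction under any alternative, but the calls of H3K27ac at 1 hour turned from 19 falls to 10 rises and 2 falls with median-ratio scaling. The 12 named H3K27ac regions of the 5-strain fit passed the test under every alternative tried, and in leave-one-out the member calls ran from 56 to 66 for H3K27ac, 30 to 38 for Pol II, 77 to 91 for H3K4me2 and 22 to 39 for H3K4me3. The distal Cxcl1 fall was not called after median-ratio scaling (-0.56). The cause of the changes below was not tested. With the replicate block the member calls were 64 for Pol II in the 5 strains, 2 for the strain difference in H3K27ac, 122 in C57, 18 in BALB, 67 in NOD, 23 in PWK and 14 in SPRET within strains, 82, 28 and 25 for H3K27ac at 1, 6 and 24 hours, 11 and 21 for Pol II at 6 and 24 hours, 1 for EGR2 sites and 2 for the Egr2 genotype. With median-ratio scaling they were 10 for H3K4me2, 16 for H3K4me3, 5 in BALB within strain, 12 and 2 at 1 and 24 hours and 7 for the genotype, and by the fold rule 25 in C57 and 12 in BALB, with 6 in C57 and 4 in SPRET in both marks. DESeq2 gave 22 in C57, 5 in NOD, 2 in PWK, 51, 14 and 12 for H3K27ac over time and 10 and 12 for Pol II. EdgeR gave 1 in BALB and 11 in SPRET. A filter on low values gave 37 at 1 hour, and no filter gave 3 in both marks in SPRET. A pseudocount of 5 gave 1 for the genotype, 13 in BALB by fold, and 6, 2, 9 and 6 in both marks in C57, BALB, NOD and PWK. A fold of 2 gave 81, 41, 55, 29 and 20 in C57, BALB, NOD, PWK and SPRET, and 25, 9, 27, 16 and 9 in both marks. The window of 10 kb gave by limma 1 in BALB, 0 in PWK, 1 in SPRET and 0 at 24 hours, by fold 11 in PWK and 3 in SPRET, and 160 STAT6, 197 PPARγ, 80 PU.1 and 170 C/EBPβ gained peaks. Lists cut to equal length gave 61 EGR2, 154 STAT6, 90 PPARγ and 80 C/EBPβ gained peaks.

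Leaving out 1 library moved the within-strain limma calls from 0 to 1 in C57, 0 to 50 in BALB (50 without the first BALB library at 24 hours), 0 to 4 in NOD and 0 to 5 in PWK, with 0 in SPRET throughout. Over time the ranges were 0 to 97, 0 to 19 and 0 to 21 for H3K27ac at 1, 6 and 24 hours (the highest each without the first library at 1 hour), and 0 to 16 and 0 to 9 for Pol II at 6 and 24 hours (the highest each without the first basal library). EGR2 sites and the genotype gave 0 to 1. By fold the ranges were 34 to 83 in C57, 15 to 86 in BALB, 21 to 54 in NOD, 17 to 39 in PWK and 9 to 19 in SPRET, the highest in C57, BALB, NOD and PWK without the first library at 24 hours, and in both marks 8 to 18 in NOD and 1 to 6 in SPRET.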
